A study of Mus musculus with 24 samples.

Results

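Transcript levels of 10 transcription factors of the naive pluripotency network were followed across 24 poly(A) RNA libraries of mouse embryonic stem cells. The factors were Pou5f1, Sox2, Klf2, Klf4, Klf5, Esrrb, Tbx3, Tfcp2l1, Zfp42 and Prdm14. They were chosen by gene symbol through their Ensembl identifiers and make up 10 of the 48985 genes in the count table. All 10 were in the table and all 10 passed the filter on low counts.

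The cells were F121/9, a female F1 hybrid whose parents were mice of the strains 129/Sv and CAST/EiJ, together with clones derived from it. The recombinations studied were 5, named d3, d6, i7, i12 and i10. Each had a parental line, given as genotype control in the labels, and 1 or 2 recombined clones, which makes 7 clones: d3 clone 12 and clone 21, d6 clone 16, i7 clone 7 and clone 12, i12 clone 10 and i10 clone 18. The sources used here do not say what the letters and numbers of the recombinations stand for, or which sequence was recombined. Each recombined line is 1 clone, so a difference that arose by chance in that clone cannot be told apart from the recombination. Every line, parental and recombined, was grown on gelatin without serum in LIF with the MEK inhibitor PD0325901 and the GSK3 inhibitor CHIR99021, the medium known as 2i plus LIF. Each of the 12 lines had 2 replicates, described in the design text as biological duplicates, with no further account of how they were kept apart.

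Naive embryonic stem cells keep the state of the preimplantation epiblast through a set of transcription factors that activate one another. Pou5f1 (OCT4) and Sox2 bind DNA together and are shared by naive and primed cells. The Krüppel-like factors Klf2, Klf4 and Klf5, the orphan nuclear receptor Esrrb, the T-box factor Tbx3 and the CP2-family factor Tfcp2l1 hold the naive state and link it to the medium. LIF acts through STAT3 on Klf4 and Tfcp2l1, while GSK3 inhibition relieves Esrrb from repression by Tcf7l1, and MEK inhibition keeps differentiation signals from FGF low. Zfp42 (REX1) is a zinc-finger protein used as a marker of the naive state, and Prdm14 is a PR-domain protein that restrains FGF signalling and the de novo DNA methyltransferases.

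The genes lie on 8 chromosomes, at the following positions of GENCODE M21 on GRCm38. Pou5f1 (ENSMUSG00000024406.16) spans chr17:35506018-35510772 on the plus strand. Sox2 (ENSMUSG00000074637.7) spans chr3:34650405-34652461 on the plus strand. Klf2 (ENSMUSG00000055148.7) is at chr8:72319033-72321656, plus strand, Klf4 (ENSMUSG00000003032.8) at chr4:55527143-55532466, minus strand, and Klf5 (ENSMUSG00000005148.8) at chr14:99298691-99315036, plus strand. Esrrb (ENSMUSG00000021255.17) is at chr12:86361117-86521628, plus strand, Tbx3 (ENSMUSG00000018604.18) at chr5:119670669-119684724, plus strand, and Tfcp2l1 (ENSMUSG00000026380.10) at chr1:118627945-118685168, plus strand. Zfp42 (ENSMUSG00000051176.6) lies at chr8:43295063-43306980, minus strand, and Prdm14 (ENSMUSG00000042414.7) at chr1:13113457-13127163, minus strand.

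The 250 bases before the RefSeq transcript start were printed for Zfp42, Klf4 and Pou5f1, because the counts of these 3 genes were unequal between the 2 alleles and Zfp42 also differed most between replicate numbers. RefSeq promoter windows on GRCm38.p6 were found for 7 of the 10 genes, and none was found for Klf5, Tbx3 and Prdm14 in the source used here. RefSeq and GENCODE starts differ: the Zfp42 and Klf4 windows end 30 and 10 bases upstream of the GENCODE start, and the Pou5f1 window runs past it into the annotated gene. Letters are the reference genome's, not those of 129/Sv or CAST/EiJ, and capitals mark matches on either strand to 4 motifs. These were the POU octamer ATGCAAAT, the GC-rich KLF motif GGGNGGGGC, the CACCC-type KLF motif GGGTGTGG and the nuclear receptor core AGGTCA. Of 32851 promoter windows of this length, 1.6% held the octamer, 15.5% the GC-rich motif, 3.2% the CACCC-type motif, and 4607 of them the nuclear receptor core. The window of Zfp42 held 1 octamer, 1 GC-rich match and 1 CACCC-type match, none of them overlapping. The window of Klf4 held 4 GC-rich matches, of which the 2 farthest from the gene overlap each other, and that of Pou5f1 held 1 GC-rich match and 1 nuclear receptor core. A match describes letters only and is no sign of binding.
Zfp42, chr8:43307010-43307259, minus strand: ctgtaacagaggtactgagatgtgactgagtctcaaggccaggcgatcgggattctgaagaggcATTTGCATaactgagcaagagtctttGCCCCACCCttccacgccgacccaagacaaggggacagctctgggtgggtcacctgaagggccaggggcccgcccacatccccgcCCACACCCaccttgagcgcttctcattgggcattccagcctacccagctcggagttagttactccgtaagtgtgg
Klf4, chr4:55532476-55532725, minus strand: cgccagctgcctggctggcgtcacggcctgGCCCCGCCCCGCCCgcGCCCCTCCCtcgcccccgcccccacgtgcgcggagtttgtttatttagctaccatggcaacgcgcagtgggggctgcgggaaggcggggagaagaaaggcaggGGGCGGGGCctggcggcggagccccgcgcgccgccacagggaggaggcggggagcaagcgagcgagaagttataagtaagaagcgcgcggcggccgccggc
Pou5f1, chr17:35505782-35506031, plus strand: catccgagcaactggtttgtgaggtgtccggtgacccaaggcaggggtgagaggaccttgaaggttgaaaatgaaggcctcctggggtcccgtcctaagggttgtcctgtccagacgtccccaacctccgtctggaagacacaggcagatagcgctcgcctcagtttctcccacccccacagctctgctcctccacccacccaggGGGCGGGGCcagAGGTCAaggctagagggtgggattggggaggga

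Total counts per library, with the counts of both alleles added, ran from 3286819 to 6920899 in the i12 and i10 libraries and from 6345947 to 15581094 in the others. Autosomal genes had 48.3% to 49.6% of their counts on the 129S1 allele, the table's name for the 129/Sv genome. Levels are given in CPM, the usual depth-scaled count, with the library's effective size after TMM normalisation as the scale. The label of embryonic stem cells was checked against marker lists. All 10 factors were detected in every library, with a summed level of 5307 to 7877 CPM. Markers of other cell types were low in sum: 6.99 to 28.8 CPM for 8 primitive endoderm genes, 13.7 to 45.0 CPM for 6 trophectoderm genes, 64.8 to 141 CPM for 6 neural genes, 8.16 to 61.3 CPM for 5 mesendoderm genes and 3.93 to 25.7 CPM for 7 fibroblast genes, of which Dcn was at 0 throughout. In these bulk libraries, fewer cells that express a factor and less RNA per cell cannot be told apart.

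Per kilobase of annotated exon, the parental libraries held most Zfp42 RNA (691 CPM per kb), followed by Pou5f1 (353), Tfcp2l1 (252) and Klf4 (162). Sox2 (94.6) and Esrrb (94.1) lay close together, and Prdm14 (49.6), Klf5 (36.4), Tbx3 (29.5) and Klf2 (14.2) were the lowest. The exon length joins all annotated isoforms, so the order between neighbours such as Sox2 and Esrrb is approximate. Mean counts per library were 236.3 for Klf2, the least covered of the 10, and 21948.4 for Tfcp2l1, the best covered.

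Across the 24 libraries the factors varied to different degrees. Klf4 was the steadiest at 374 to 556 CPM, a span of 1.49-fold from the lowest to the highest library. Klf2, which shares its DNA-binding domain type with Klf4, ran from 10.1 to 46.2 CPM (4.55-fold), and Klf5 from 106 to 348 CPM (3.30-fold). Zfp42 ran from 604 to 1915 CPM (3.17-fold), Tbx3 from 104 to 273 CPM (2.61-fold) and Prdm14 from 84.9 to 204 CPM (2.40-fold). The remaining 4 factors spanned 2.14-fold (Sox2) to 2.30-fold (Tfcp2l1).

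**Figure D1:**
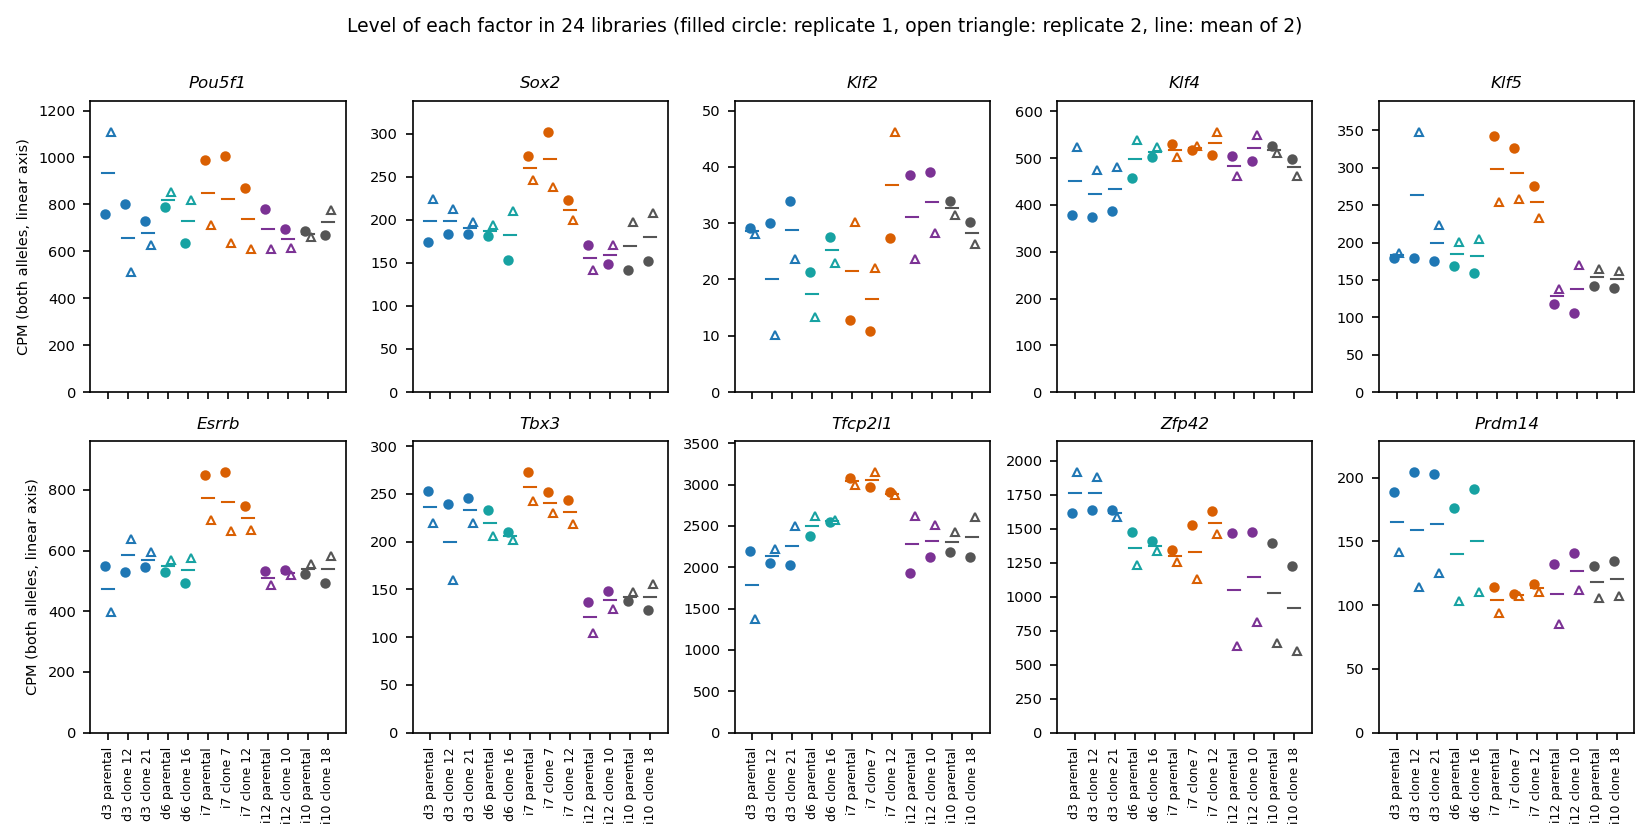
CPM of each factor, both alleles added, on linear axes that start at 0, in the 12 lines (x axis). Circles are replicate 1, triangles replicate 2 and lines the mean of 2, with colours for the 5 recombinations. The i12 and i10 lines are low in Tbx3 (104 to 156 CPM), and their Zfp42 is 1230 to 1479 CPM in replicate 1 and 604 to 812 CPM in replicate 2.

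Each recombined clone was compared with the parental line of its recombination, the question of the study being how expression changed on recombination. None of the 10 factors was called as changed in any of the 7 clones by edgeR's quasi-likelihood test: 0 of 70 tests passed an adjusted p of 0.05, and 0 of 70 had an unadjusted p under it. Among all 16253 genes tested, 0.0554% were called in d3 clone 21, 0.0123% in d3 clone 12 and as many in d6 clone 16. In i7 clone 12 it was 0.0246% (0.0185% higher and 0.00615% lower), and 0% were called in each of i7 clone 7, i12 clone 10 and i10 clone 18. DESeq2's Wald test also called 0 of 70. The log2 changes of the 70 tests lay between -0.51 and 0.77, and their medians per clone between -0.10 and 0.11. The mean effect over the 5 recombinations was likewise called for 0 of the 10 factors (0.0123% of all genes, 0 with an unadjusted p under 0.05), with values between -0.15 and 0.08. A test of whether the clone effects differed between recombinations also called 0 factors (0.0123% of all genes; 0 with an unadjusted p under 0.05).

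Libraries with the same replicate number within a recombination deviated together, and a second fit with a term for that number (the replicate block) had less unexplained spread, with a coefficient of variation of 0.119 in place of 0.246. With it, 0 of the 70 tests passed the adjusted threshold and 10 had an unadjusted p under 0.05. The 10 are pooled over the clones, and whether they exceed the share of all genes was not tested. Of all 16253 genes, 2618 had an unadjusted p under 0.05 in d3 clone 12 and 2048 in d3 clone 21. The background of called genes then was 6.27% of all genes in i7 clone 12 (3.52% higher and 2.75% lower) and 0.123% in d3 clone 21 (0.0185% higher and 0.105% lower). It was 0.0861% in d6 clone 16 (0.0615% higher and 0.0246% lower), 0.0123% in d3 clone 12 and 0% in the other 3 clones. For the mean effect it was 0.0431%, all of it lower, and 0 factors were called. The factor nearest to the threshold was Klf2 in i7 clone 12. Its level was 12.7 and 30.2 CPM in replicates 1 and 2 of the i7 parental line and 27.4 and 46.2 CPM in the clone. The clone was higher in each numbered pair, but its replicate 1 lay below the parental replicate 2, and the log2 change with the block was 0.83 (SE 0.24, adjusted p 0.0528).

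In d3, Pou5f1 measured 759 and 1109 CPM in the parental line, 799 and 511 CPM in clone 12 and 728 and 625 CPM in clone 21. The parental replicate 2 was the highest of all 24 libraries. Clone 12 overlapped the parental line, while both libraries of clone 21 lay below it. With the block the log2 change was -0.53 (SE 0.19, adjusted p 0.249) in clone 12 and -0.48 (SE 0.19, adjusted p 0.383) in clone 21. Replicate 2 of d3 clone 12 stood apart in Klf5 and Klf2. It had 348 CPM of Klf5, against 175 to 224 CPM in the other d3 libraries, and 10.1 CPM of Klf2, against 23.6 to 33.9 CPM. With the block the clone differed from its parental line by 0.46 in Klf5 (adjusted p 0.249) and -0.62 in Klf2 (adjusted p 0.260) on the log2 scale, while its replicate 1 was within 1 CPM of the parental replicate 1 in both genes.

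**Figure D2:**
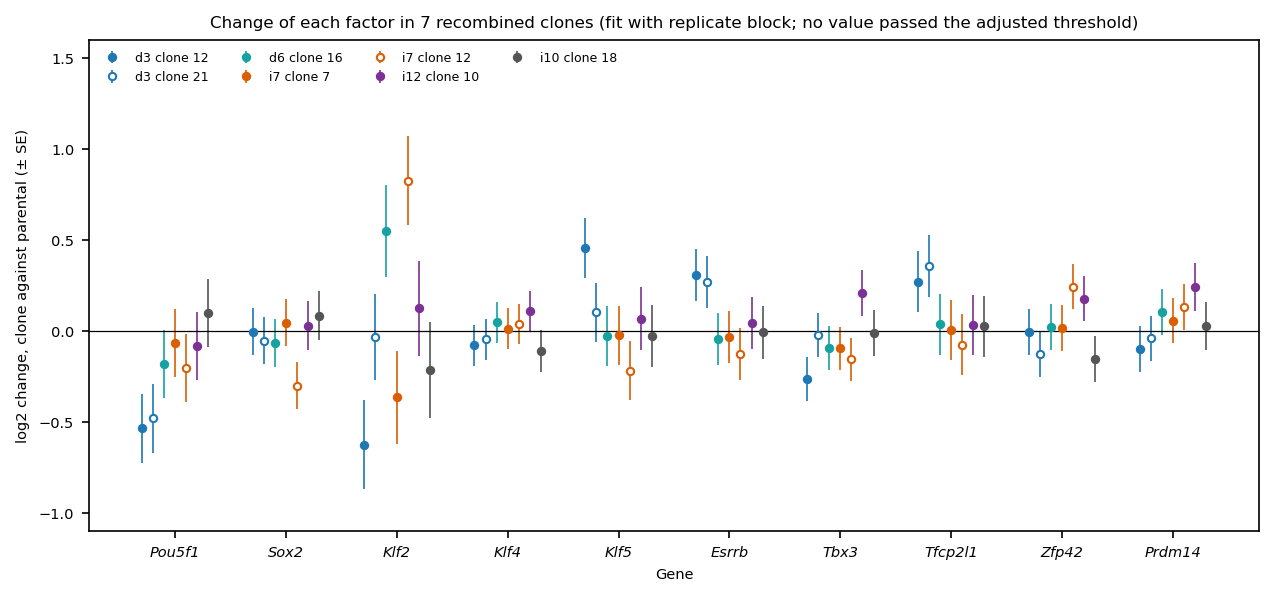
Log2 change of each factor (x axis) in each of the 7 clones against its parental line, from the fit with the replicate block, with standard errors as bars. The values run from -0.62 to 0.83 and none passed the adjusted threshold.

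Genes around the network were taken from 3 lists. Of 19 tested genes associated with naive cells and pluripotency, 26 inputs of the network (the LIF, ERK and beta-catenin branches) and 13 formative or primed genes, 0 were called in any clone without the block. With the block, 3, 3 and 4 genes of these lists were called in i7 clone 12, where 6.27% of all genes were called. Lef1 belongs to the last 2 lists, and the lists were chosen with earlier results of these data known. Lef1, a nuclear partner of beta-catenin, had 5.91 and 4.60 CPM in the i7 parental line and 30.5 and 21.4 CPM in i7 clone 12, or 2.29 higher on the log2 scale (SE 0.25, adjusted p 6.96e-05). Axin2, a feedback target of beta-catenin, had 26.1 and 20.3 CPM against 61.6 and 42.1 CPM (log2 change 1.14). For both genes the 2 clone libraries were above the 2 parental libraries. The mesendoderm factor T, also known as Brachyury, was higher by 1.76 on the log2 scale.

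Among the other genes of the lists, Dnmt3l (log2 change 1.21), a cofactor of the de novo methyltransferases, the RNA-binding protein gene Lin28a (1.04) and the TGF-beta ligand Nodal (0.56) were higher in i7 clone 12. The maternal-effect gene Ooep (-0.93), the nuclear receptor Nr0b1 (-0.64) and the ERK-dependent factor Etv5 (-0.43) were lower. The median over the 13 formative or primed genes was 0.42 in this clone, and that over all genes was near 0. Over the 26 network inputs the median was 0.006, with values from -0.54 to 2.29. Over the 19 genes associated with naive cells and pluripotency it was -0.15. In the same clone the summed mesendoderm markers, which include T, were 49.5 and 26.1 CPM, against 12.7 and 11.5 CPM in its parental line. The neural markers (95.5 and 106 CPM, with the lower parental library at 66.4 CPM), the fibroblast markers (25.7 and 25.1 CPM against 16.6 and 17.2 CPM), the trophectoderm markers (20.3 and 34.9 CPM against 13.7 and 18.2 CPM) and the primitive endoderm markers (10.8 and 10.8 CPM against 8.02 and 7.08 CPM) were also higher in both libraries of the clone. The part of these cell type markers in the changes was not tested. Of the 10 factors, 0 were called there with the block, and their median log2 change was -0.10.

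Tdgf1, the gene of the Nodal co-receptor Cripto, was the other list gene called with the block. It had 1150 and 1685 CPM in the d3 parental line and 586 and 951 CPM in d3 clone 21 (log2 change -0.90, adjusted p 0.00123). In d6 it had 1008 and 1920 CPM in the parental line and 555 and 1122 CPM in clone 16 (-0.82, adjusted p 0.0123). Its mean effect over the recombinations was -0.37 (adjusted p 0.00240). None of these Tdgf1 calls was made without the block.

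The clones of d3 and of i7 were also compared with each other. Without the block 0 of 20 tests of the factors were called (1 with an unadjusted p under 0.05, 0 by DESeq2's Wald test), with a background of 0.0492% of genes in d3 and 0.0923% in i7. With the block Klf2 was higher in i7 clone 12 than in i7 clone 7. It had 10.9 and 22.0 CPM in clone 7 and 27.4 and 46.2 CPM in clone 12, so that both libraries of clone 12 exceeded both of clone 7. The log2 difference was 1.19 (SE 0.25, adjusted p 0.00565) with the block, where 9.76% of all genes were called (0.0984% between the clones of d3), and 1.15 (SE 0.47, adjusted p 0.50) without it. The other 9 factors were not called between these clones in either fit.

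The 5 parental lines, which differ in their recombination but not in the genotype label, were compared with one another. A joint test over the 5 lines called Tbx3 alone among the 10 factors (adjusted p 0.00763; 6.64% of all genes), with Klf5 at 0.0582 and Esrrb at 0.0818. Tbx3 had 253 and 220 CPM in d3, 233 and 206 CPM in d6 and 273 and 242 CPM in i7, but 137 and 104 CPM in i12 and 138 and 147 CPM in i10. The i12 and i10 lines were therefore low and the other 3 high, with no overlap. This grouping was read from the same values, and the share of all genes that separate in this way was not counted. The clones followed their lines: all 8 libraries of i12 and i10 lay between 104 and 156 CPM, and all 16 of the others between 160 and 273 CPM. The i12 and i10 libraries were also shallower as a group, and the part of depth in this result was not tested. The Tbx3 call held when any 1 of the 10 parental libraries was left out, and was lost when only the parental libraries entered the fit, where 0 factors were called.

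In pairwise tests of the parental lines 7 of 100 tests of the factors were called. Tbx3 was lower in i12 than in d3 (log2 difference of d3 against i12 0.97, SE 0.19, adjusted p 0.00937; 4.96% of genes) and than in i7 (i7 against i12 1.09, SE 0.19, adjusted p 0.00918; 2.2% of genes). It was also lower in i10 than in d3 (0.74, adjusted p 0.0458; 3.35% of genes) and than in i7 (0.86, adjusted p 0.0424; 1.13% of genes). The background of the other pairs was 1.82% (d3 and d6), 1.13% (d6 and i7), 0.172% (d6 and i12) and 0% (i10 against d6 or i12). Single libraries ended these Tbx3 calls. Without i12 parental replicate 2 the difference was 0.77 from d3 (adjusted p 0.190) and 0.91 from i7 (adjusted p 0.106). Without i7 parental replicate 1, the difference of i7 from i12 was 1.02 (adjusted p 0.126). The calls against i10 were lost without either library of either line compared (adjusted p 0.0769 to 0.399), and the one against d3 also without d6 parental replicate 1 or either i7 parental library (adjusted p 0.0583 to 0.0648).

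Klf5 had 342 and 254 CPM in i7 and 118 and 138 CPM in i12 (i7 against i12 1.22, SE 0.28, adjusted p 0.0336). Leaving out either library of i7 or of i12 ended the Klf5 call (adjusted p 0.0681 to 0.364).

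Esrrb and Tfcp2l1 were higher in the i7 than in the d3 parental line. Esrrb had 848 and 701 CPM in i7 and 549 and 397 CPM in d3 (d3 against i7 -0.71, SE 0.18, adjusted p 0.0425; 3.73% of genes). Tfcp2l1 had 3083 and 2996 CPM in i7 and 2191 and 1369 CPM in d3 (-0.77, SE 0.21, adjusted p 0.0473). Replicate 2 of the d3 parental line was the lowest of the 24 libraries in both genes. Without it the differences were -0.50 (adjusted p 0.212) and -0.47 (adjusted p 0.234), so both calls ended. Leaving out either i7 library (adjusted p 0.106 to 0.335) or either d6 library (adjusted p 0.0510 to 0.0584) also ended both, and leaving out i10 parental replicate 1 ended that of Tfcp2l1 (adjusted p 0.0507). In all 6 i7 libraries Esrrb lay between 665 and 857 CPM and Tfcp2l1 between 2870 and 3146 CPM, against 397 to 639 CPM and 1369 to 2622 CPM in the other 18 libraries. This separation was read from the same values, and the share of all genes that separate i7 in this way was not counted.

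Within a recombination, several factors differed between replicate numbers. The difference of replicate 2 against replicate 1 was estimated once per recombination in the fit with the block, and 11 of 50 tests of the factors were called. The labels do not say what a number marks beyond a replicate. Replicate differences over all genes also correlated between d3 and d6 lines (r 0.40 to 0.60) and between i12 and i10 lines (0.50 to 0.58). Differences of 1 factor in d3 and d6, or in i12 and i10, are therefore not separate observations. The p-values measure how far lines of the same recombination disagree on the difference, not the spread between independent replicates. Where replicate numbers are said below not to overlap, the share of all genes that separate in this way was not counted. When 1 library is left out below, the other library of its line no longer informs the difference, so either gives nearly the same check. In d6, i12 and i10 the difference then rests on 1 line. By recombination, 5 factors were called in d3 (28.6% of all genes), 1 in d6 (19.6%), 1 in i7 (4.31%), 2 in i12 (19.4%) and 2 in i10 (17.7%). With 10 factors tested in each, the counts in i12 and i10 were near the share of all genes and that in d6 was below it. The count in d3 was above its share, and that in i7 rests on 1 factor. Whether the factors were called more often than other genes was not tested.

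Zfp42 gave the largest of these differences. In i12 it had 1468 and 1479 CPM in the replicate 1 libraries of the parental line and clone 10, and 636 and 812 CPM in the replicate 2 libraries. In i10 it had 1394 and 1230 CPM in replicate 1 of the parental line and clone 18, and 658 and 604 CPM in replicate 2. All 4 replicate 2 libraries were below all other 20 libraries of the series, in parental and recombined lines alike. The log2 difference was -1.04 (SE 0.13, adjusted p 5.86e-05) in i12 and -1.05 (SE 0.13, adjusted p 5.32e-05) in i10, and it was 0.13 in d3, -0.17 in d6 and -0.23 in i7, where it was not called. The 129S1 share of Zfp42 was 25.4% to 29.0% in those replicate 1 libraries and 25.1% to 28.1% in the replicate 2 libraries, so the counts of both alleles were lower.

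Prdm14 was lower in the replicate 2 libraries of d3, d6 and i12. In d3 its replicate 1 libraries had 189, 204 and 203 CPM and its replicate 2 libraries 142, 114 and 125 CPM (log2 difference -0.65, SE 0.10, adjusted p 2.19e-04). In d6 they had 177 and 191 CPM against 103 and 110 CPM (-0.79, SE 0.13, adjusted p 5.42e-04). In i12 they had 132 and 141 CPM against 84.9 and 112 CPM (-0.48, SE 0.13, adjusted p 0.0170). Replicate numbers did not overlap in any of the 3. Without either library of the i12 parental line the i12 call was lost (-0.33, adjusted p 0.351, and -0.34, adjusted p 0.334).

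Klf2 differed in opposite directions. In i7 its replicate 1 libraries had 12.7, 10.9 and 27.4 CPM and its replicate 2 libraries 30.2, 22.0 and 46.2 CPM (log2 difference 0.99, SE 0.20, adjusted p 0.00967), higher in replicate 2 in 3 of 3 lines. In d3 it had 29.1, 30.0 and 33.9 CPM against 28.1, 10.1 and 23.6 CPM (-0.68, SE 0.20, adjusted p 0.0169), lower in 3 of 3 lines. The d3 difference was -0.29 (adjusted p 0.192) without d3 clone 12 replicate 1 or replicate 2. The i7 difference kept its size but not its call without a library of the parental line or of clone 7 (0.87 to 0.99, adjusted p 0.0926 to 0.109).

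The other calls were smaller. In d3, Klf4 was higher in replicate 2 (523, 475 and 482 CPM against 378, 374 and 386 CPM; log2 difference 0.38, adjusted p 0.00607), with no overlap. Klf5 (0.46, adjusted p 0.0179) and Tbx3 (-0.32, adjusted p 0.0247) were called in d3, but not when a library of clone 12 was left out. Without replicate 1 of that clone they were at 0.20 (adjusted p 0.238) and -0.19 (adjusted p 0.220), and without its replicate 2 at 0.21 (adjusted p 0.237) and -0.19 (adjusted p 0.222). Without a filter on low counts the Tbx3 call was also lost (-0.30, adjusted p 0.0609), while Klf2 (-0.62, adjusted p 0.0199) and Klf5 (0.42, adjusted p 0.0499) were then called in i12. Klf5 was also lost without d3 clone 21 replicate 2 (0.50, adjusted p 0.0518). Sox2 was higher in replicate 2 of i10, with 198 and 208 CPM against 142 and 152 CPM (0.46, adjusted p 0.0249). Without any 1 of the 4 i10 libraries the Sox2 difference was 0.42 to 0.47 and was not called, with 1 line left to estimate it. Pou5f1, Esrrb and Tfcp2l1 were not called in any recombination, though Pou5f1 in d3 was called without d3 parental replicate 1 (-0.42, adjusted p 0.00428) or replicate 2 (-0.44, adjusted p 0.00335). In i7, Pou5f1 had 988, 1004 and 871 CPM in replicate 1 and 711, 637 and 608 CPM in replicate 2, with no overlap. Its log2 difference there was -0.55 (adjusted p 0.0529), which passed with DESeq2's size factors (adjusted p 0.0469) and without a filter on low counts (adjusted p 4.23e-05).

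**Figure D3:**
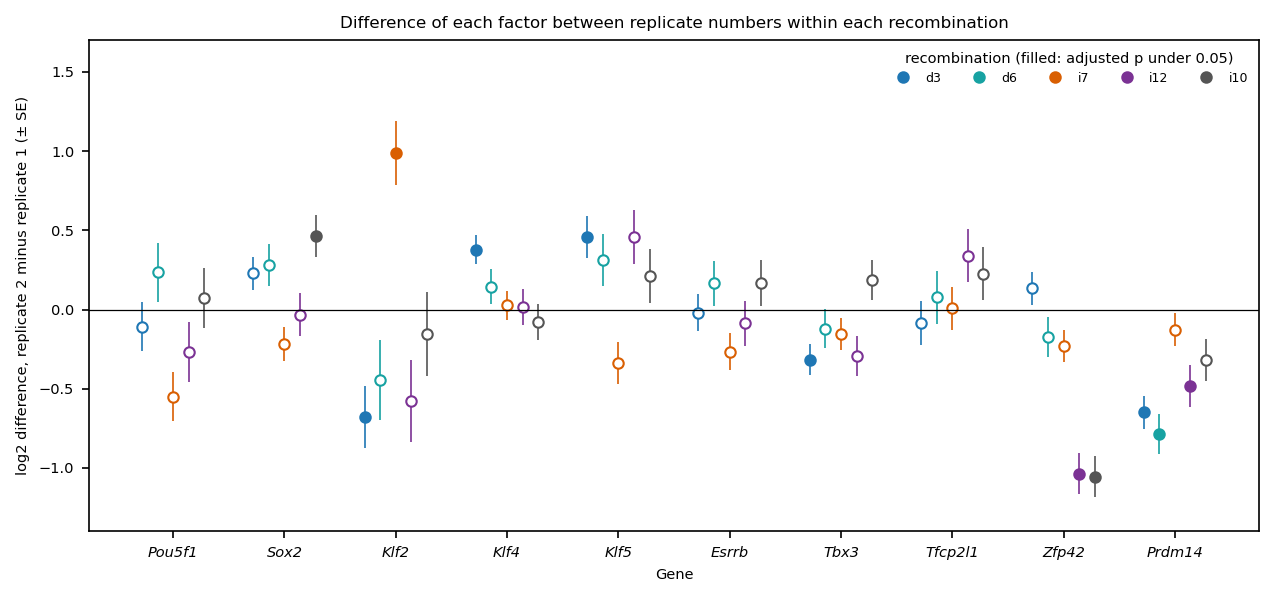
Log2 difference of replicate 2 against replicate 1 of each factor (x axis) within each of the 5 recombinations, with standard errors as bars; filled points passed the adjusted threshold. Zfp42 is near -1.04 and -1.05 in i12 and i10 only, Klf2 has opposite signs in i7 and d3, and Prdm14 is below 0 in all 5.

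A test of whether the replicate difference itself varied between recombinations was called for 5 of the 10 factors, against 24.7% of all genes. These were Zfp42 (adjusted p 1.83e-04), Klf2 (adjusted p 0.00312), Klf5 (adjusted p 0.0261), Prdm14 (adjusted p 0.0289) and Sox2 (adjusted p 0.0353). By the same numbers, list genes differed too. In d3, 11 of 19 genes associated with naive cells and pluripotency were called (3 higher and 8 lower in replicate 2), as were 13 of 26 network inputs (4 higher, 9 lower) and 9 of 13 formative or primed genes (3 higher, 6 lower). In i12 the counts were 8 of 19 (1 higher, 7 lower), 9 of 26 (3 higher, 6 lower) and 6 of 13 (1 higher, 5 lower), and in i7 they were 2 of 19, 1 of 26 and 0 of 13. In d6 the counts were 8 of 19 (2 higher, 6 lower), 6 of 26 (4 higher, 2 lower) and 6 of 13 (2 higher, 4 lower), and in i10 they were 7 of 19 (2 higher, 5 lower), 7 of 26 (3 higher, 4 lower) and 5 of 13 (2 higher, 3 lower). Over all genes the share called was 28.6% in d3, 19.6% in d6, 4.31% in i7, 19.4% in i12 and 17.7% in i10.

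Summed markers of other cell types moved with the numbers as well. In d3 the neural markers were at 70.0 to 78.6 CPM in replicate 1 and 119 to 129 CPM in replicate 2, and the fibroblast markers at 7.54 to 11.4 CPM and 15.7 to 21.7 CPM. The markers of primitive endoderm (19.8 to 23.2 CPM against 9.78 to 13.9 CPM), trophectoderm (32.8 to 35.6 CPM against 16.4 to 20.7 CPM) and mesendoderm (45.7 to 61.3 CPM against 25.9 to 39.9 CPM) were lower in replicate 2 of d3. In d6 those of primitive endoderm were at 24.9 and 28.8 CPM in replicate 1 and 15.3 and 19.5 CPM in replicate 2. In i12 and i10 the neural markers were at 114 to 141 CPM in replicate 1 and 67.0 to 90.5 CPM in replicate 2. The mitochondrial share of counts there was 2.85% to 3.84% in replicate 1 and 4.42% to 5.91% in replicate 2, higher in replicate 2 in 4 of 4 lines. The part of these shifts in the differences of the factors was not tested.

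The 2 alleles were compared in the parental lines, over the 10795 genes that averaged 10 or more counts on each. Of the 10 factors 8 were called as unequal, against 69.2% of all genes, so the count itself is near the background. The sizes differed widely. Pou5f1 had 245 counts on 129S1 and 59713 on CAST over the 10 parental libraries, which is 0.409% on 129S1 and a log2 ratio of -7.91 (SE 0.06, adjusted p 7.35e-26). In single libraries the share ran from 0.322% (Wilson 95% interval 0.225% to 0.462%) to 0.641% (0.382% to 1.07%), in clones and parental lines alike. Among 10362 autosomal genes averaging 50 or more counts, 2.81% had a share under 1%.

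The genes beside Pou5f1 had mixed ratios. The 10 nearest genes averaging 20 or more counts had shares from 0% to 100% and a median of 48.8%, and the next gene to the right after the overlapping one, Tcf19, had 379 counts on each allele. Gm19553, annotated on the opposite strand within Pou5f1, held 28279 counts in all libraries and had 0.316% on 129S1. Whether the authors' counting used the strand is not given in the sources used here, so the counts of these 2 genes may share reads. How reads were assigned to an allele is not given either, so unequal RNA and unequal assignment of reads at Pou5f1 cannot be told apart. Tbx3 and the overlapping Tbx3os1, which held 1297 counts, may share reads too. The limit on assignment applies to the parental shares of the other factors as well.

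Prdm14 and Zfp42 were also mostly counted from CAST. Prdm14 had 1407 counts on 129S1 and 8458 on CAST, or 14.3% (log2 ratio -3.03, SE 0.21, adjusted p 7.88e-11), and 6.16% of the autosomal genes had a share under 15%. Zfp42 had 24496 and 78327, or 23.8% (-1.64, SE 0.04, adjusted p 1.02e-18). Klf4 had 12303 and 23256, or 34.6% (-0.94, SE 0.04, adjusted p 5.19e-15), and its share lay between 32.0% and 37.7% in all 24 libraries. The median share of 10 neighbouring genes was 56.3% for Prdm14, 52.2% for Zfp42 and 48.3% for Klf4. Single neighbours ran from 22.2% to 94.6% for Prdm14, from 32.1% to 85.7% for Zfp42 and from 2.52% to 100% for Klf4.

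Among the factors, Tbx3 had the largest excess on 129S1, at 60.5% (9531 and 6226 counts, log2 ratio 0.66, SE 0.06, adjusted p 1.89e-09). Tfcp2l1 at 54.3% (0.22, adjusted p 2.33e-05), Sox2 at 53.7% (0.15, adjusted p 0.00240) and Esrrb at 53.1% (0.18, adjusted p 2.36e-04) were slightly above equality. Klf5 at 50.8% (0.07) and Klf2 at 49.3% (0.00) were not called. Klf5 was called without d3 parental replicate 1 (0.11, adjusted p 0.0182) or i10 parental replicate 2 (0.10, adjusted p 0.0447). The ratio differed between the 5 parental lines for 0 of the 10 factors (1.32% of all genes; 2 factors, Sox2 and Zfp42, had an unadjusted p under 0.05), with Zfp42 nearest to the threshold at 0.0766.

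**Figure D4:**
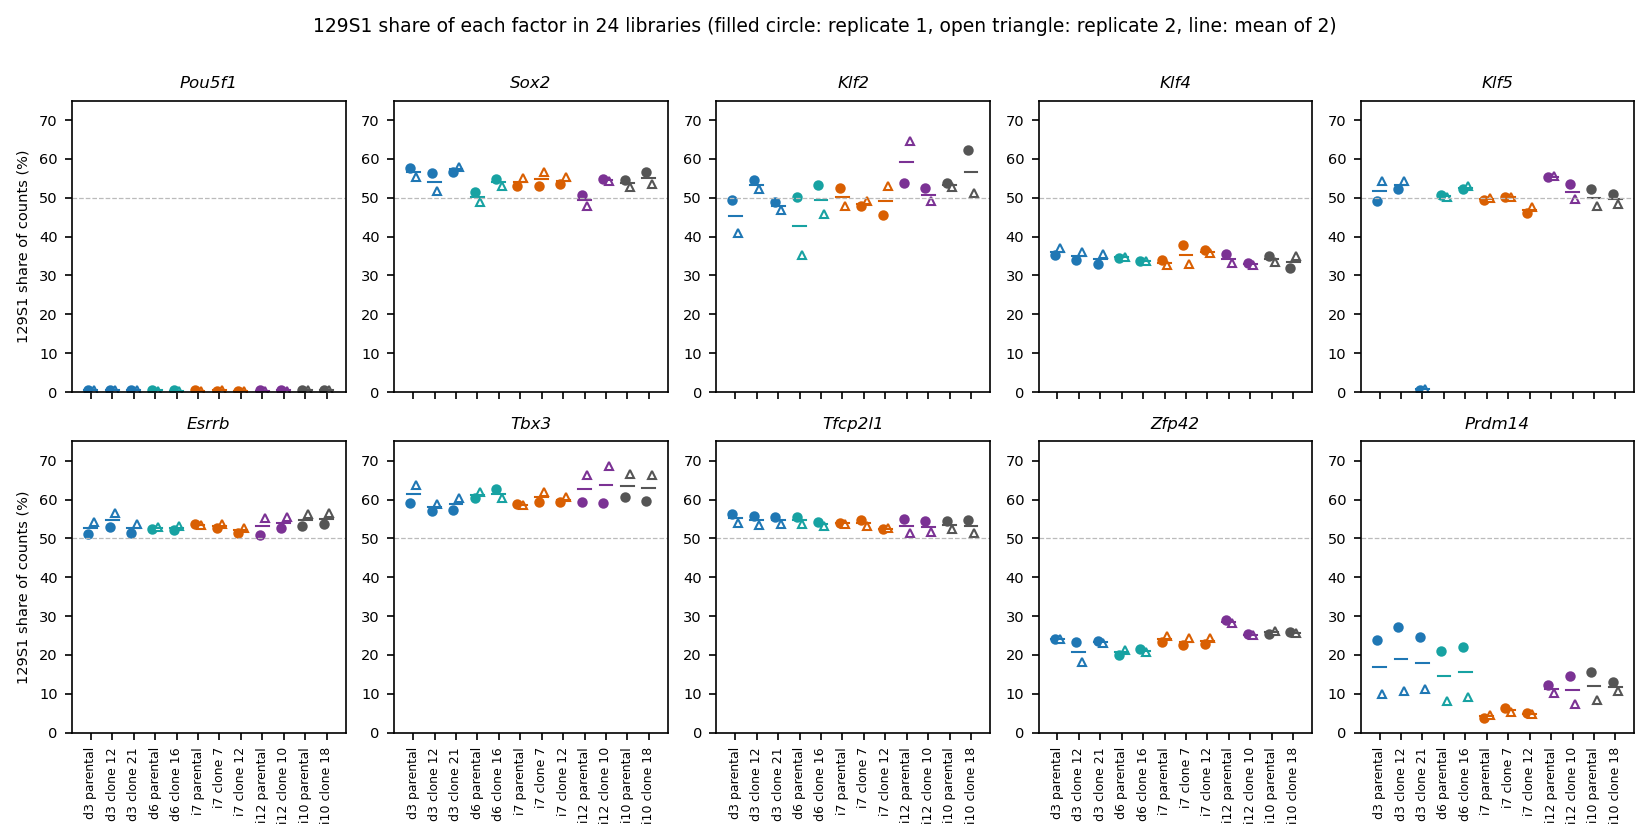
Percent of each factor's counts on the 129S1 allele in the 12 lines (x axis). Circles are replicate 1, triangles replicate 2, lines the mean of 2 and the dashed line 50%. Pou5f1 stays under 1% everywhere, Klf5 is near 50% except in d3 clone 21 (0.608% and 0.724%), and Prdm14 is lower in replicate 2 without overlap in d3, d6, i12 and i10. The Prdm14 difference was called in d3 and d6 only.

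One factor changed its allelic ratio in a clone. Klf5 in d3 clone 21 had 13 counts on 129S1 and 2127 on CAST in replicate 1, and 19 and 2605 in replicate 2. These are shares of 0.608% (Wilson 95% interval 0.355% to 1.04%) and 0.724% (0.464% to 1.13%), while the other 22 libraries had 46.2% to 55.6%. The log2 change of the ratio against the d3 parental line was -7.28 (SE 0.16, adjusted p 5.48e-18; 3.39% of genes called in this clone). It was -7.36 (SE 0.16, adjusted p 3.78e-18; 3.25% of genes) against d3 clone 12, which kept 53.5% on 129S1. The other 69 tests of the factors in the 7 clones were not called (3 of the 70 had an unadjusted p under 0.05). The background in the other clones was 2.33% in i7 clone 12, 0.0463% for each of d6 clone 16 and d3 clone 12, 0.00926% for each of i12 clone 10 and i7 clone 7, and 0% in i10 clone 18.

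The summed Klf5 level was 175 and 224 CPM in d3 clone 21, against 179 and 186 CPM in the d3 parental line, with no called change (log2 change 0.13, adjusted p 1.00). The CAST counts alone carried it: 174 and 222 CPM were on CAST in the clone, against 90.8 and 85.2 CPM in the parental line. Klf5 was not alone on its chromosome. Of the 382 genes tested on chromosome 14, 349 had a lower ratio in this clone and 0 a higher one. The 10 genes nearest to Klf5 had a median share of 45.2% in the d3 parental line, 44.8% in d3 clone 12 and 4.89% in d3 clone 21.

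In d3 and d6 the allelic ratio of Prdm14 differed between replicate numbers, a comparison added after the counts had been seen. In d3 the replicate 1 libraries of the parental line, clone 12 and clone 21 had 543, 840 and 608 counts on 129S1 against 1741, 2244 and 1868 on CAST, or shares of 23.8%, 27.2% and 24.6%. The replicate 2 libraries had 136, 136 and 166 against 1239, 1137 and 1304, or 9.89%, 10.7% and 11.3%. In d6 the shares were 20.9% and 22.0% in replicate 1 and 8.10% and 9.27% in replicate 2. In i12 they were 12.2% and 14.6% in replicate 1 and 10.2% and 7.35% in replicate 2, and in i10 15.6% and 12.9% against 8.31% and 10.7%. Replicate numbers did not overlap in any of these 4 recombinations. The share of all genes that separate in this way was not counted, and the i12 and i10 differences were not called.

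The log2 difference of the Prdm14 ratio was -1.50 (SE 0.11, adjusted p 2.09e-06; 1.96% of genes called) in d3 and -1.53 (SE 0.16, adjusted p 1.16e-04; 1.4% of genes) in d6. It was -0.76 (SE 0.22, adjusted p 0.297; 0.0648% of genes) in i12, -0.65 (SE 0.22, adjusted p 0.369; 0.102% of genes) in i10 and -0.08 (SE 0.17, adjusted p 0.936; 3.3% of genes) in i7. The difference between recombinations was called (adjusted p 0.00208; 3.43% of genes). Among the other 9 factors, 0 were called for this replicate term in any recombination. All 6 i7 libraries had low shares, 3.80% to 6.43%. The 10 neighbours of Prdm14 had median shares of 52.8% and 57.1% in d3 replicates 1 and 2 and of 52.7% and 57.8% in d6.

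By allele, Prdm14 on 129S1 was 36.9 to 55.6 CPM in the d3 and d6 replicate 1 libraries and 8.35 to 14.1 CPM in replicate 2, while on CAST it was 140 to 153 CPM and 94.7 to 128 CPM. The i7 libraries had 4.33 to 6.99 CPM on 129S1 and 89.8 to 111 CPM on CAST.

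**Figure D5:**
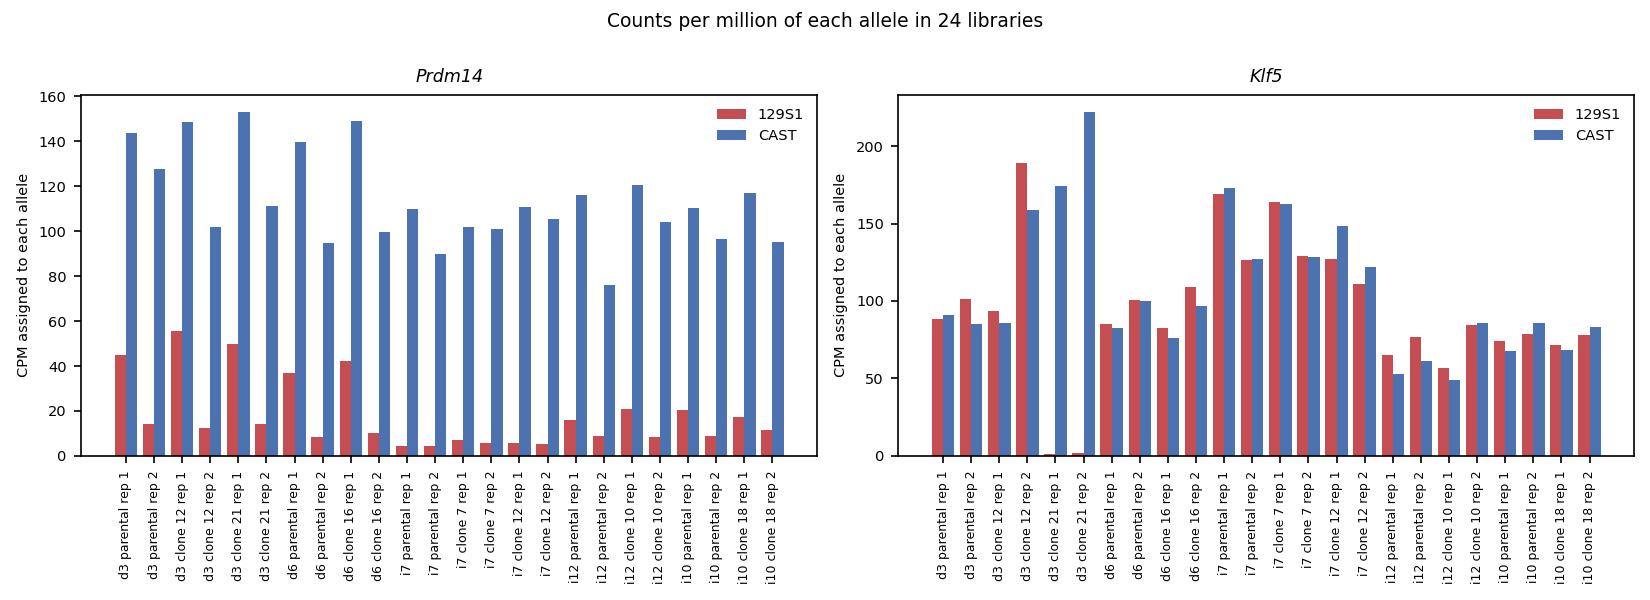
CPM assigned to the 129S1 and the CAST allele of Prdm14 (left) and Klf5 (right) in each of the 24 libraries (x axis), as bars from 0. In Prdm14 the 129S1 bars of d3 and d6 are 36.9 to 55.6 CPM in replicate 1 and 8.35 to 14.1 CPM in replicate 2, and in Klf5 the 129S1 bars of d3 clone 21 are near 0.

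For each factor the 2 genes with the most similar profile were taken from 10723 genes averaging 50 or more counts, by Pearson's r of log2(CPM + 1) over the 24 libraries. The libraries share recombinations, replicate numbers and depth, so these values are descriptions. Zfp42 was followed most closely by Zfp473 (r 0.97) and BC005537 (0.94), Prdm14 by Zbtb45 (0.94) and Ino80c (0.94), and Pou5f1 by the overlapping Gm19553 (0.94) and Gm17134 (0.88). Klf5 was followed by Eps15 (0.92) and Zfyve9 (0.92), Tfcp2l1 by Tnks (0.92) and Gm16568 (0.91), Esrrb by Ttc9c (0.91) and Arfgef2 (0.90), and Sox2 by Vbp1 (0.91) and Btg3 (0.90). Tbx3 was followed by Wipf2 (0.90) and Klb (0.89), Klf4 by Pgm1 (0.86) and Pde9a (0.85), and Klf2 by Snx32 (0.86) and AC147227.1 (0.83). Among the 45 pairs of factors, Sox2 and Klf5 were the most alike (r 0.85) and Klf2 and Klf5 the most opposed (r -0.67), with Esrrb and Tfcp2l1 at 0.77 and Esrrb and Klf5 at 0.77. By Spearman's rank correlation, Tfcp2l1 and Prdm14 were the most opposed (-0.71) and Klf2 and Klf5 were at -0.56. Klf4 was then at 0.65 with Pgm1 and 0.55 with Pde9a.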

How the data were processed

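RNA was measured in 24 libraries of 12 lines. Libraries were TruSeq Stranded mRNA, made from polyadenylated RNA and sequenced single-end on a NextSeq, per the labels' protocols. The submitters' processing notes name STAR, SAMtools and mm10, without role or version. How and against which annotation reads were counted, whether strand was used, and what became of reads that cover no variant are not given in the sources used here. The deposited table holds raw counts per gene, in 2 columns per library that its header assigns to the 129S1 and the CAST allele, and all 48 columns were used. Of its 48985 identifiers, 48301 were identical to GENCODE M21 and 48838 matched without the version.

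The counts of both alleles were added per gene and library. edgeR 4.0.16 in R 4.3.3 was used with TMM normalisation, its filter on low counts (16253 genes kept) and the quasi-likelihood test, in 1 fit of 24 libraries with a coefficient per line (12 residual degrees of freedom). All p-values were adjusted over all genes tested by Benjamini-Hochberg, with calls under 0.05. With 2 replicates a line, p-values of the fit without the replicate block measure the spread between these cultures, which may be partly technical. Those of the fit with the block measure the spread left once the shared replicate difference is removed. For replicate 2 against replicate 1 this is the disagreement between lines of a recombination, not the spread between independent cultures. CPM are counts scaled by effective library size. The allelic fit used both columns of each library, with 1 term for each library and 1 allele term for each line. Shares of single libraries have Wilson 95% intervals, which cover counting error only. Depth is given with the results.

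Replicate numbers come from the labels. Differences of replicate 2 against replicate 1 correlated over genes between lines of the same recombination in all 9 pairs (r 0.36 to 0.69, median 0.55), and between recombinations in 57 pairs with a median r of 0.21 (-0.21 to 0.60). The numbers were therefore taken to pair libraries within a recombination, and a replicate block was fitted beside the test without it (7 residual degrees of freedom). Between the lines of d3 and those of d6, r was 0.40 to 0.60, and between those of i12 and i10 it was 0.50 to 0.58. Like replicate differences in d3 and d6, or in i12 and i10, may therefore be 1 shared shift.

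All 10 factors are named. Genes of the 3 lists are named where called against a parental line, with or without the block. The members and lists were chosen with earlier results of these data known. Alternatives were DESeq2 1.42.0, other size factors, no filter, each allele alone, fewer libraries in the fit, and each library left out. Tests were tried on simulated data. Python 3.11.15 (numpy 2.4.6, pandas 2.3.3, scipy 1.17.1, matplotlib 3.10.9) made the rest.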

Additional observations from a re-analysis of the deposited data

Results flagged for a closer look

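The 5 factors named next were singled out because their difference between replicate numbers was not the same in the 5 recombinations, by a joint test of that difference in edgeR: Zfp42 (adjusted p 1.83e-04), Klf2 (adjusted p 0.00312), Klf5 (adjusted p 0.0261), Prdm14 (adjusted p 0.0289) and Sox2 (adjusted p 0.0353). The same test was called for 24.7% of all genes. Zfp42 was lower in 4 of 4 replicate 2 libraries of i12 and i10 than in the replicate 1 library of the same line. Replicate differences over all genes correlated between i12 and i10 lines (r 0.50 to 0.58), so the 4 are not separate observations.

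The difference of the allelic ratio of Prdm14 between replicate numbers was not the same in the 5 recombinations (adjusted p 0.00208). The 129S1 share was lower in replicate 2 in 5 of 5 lines of d3 and d6, where the difference was called, and in 4 of 4 lines of i12 and i10, where it was not (log2 difference -0.76 and -0.65). In i7 the difference was -0.08. Replicate differences in level over all genes correlated between d3 and d6 lines (r 0.40 to 0.60), so these 5 lines are not separate observations.

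The allelic ratio of Klf5 differed between the 2 clones of d3 (adjusted p 3.78e-18), with 0.672% of counts on 129S1 in clone 21 and 53.5% in clone 12.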

How the results depend on the processing

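The replicate block added 1 call between clones of a recombination (Klf2 in i7, 1 call in place of 0), and the comparison without a filter on low counts also gave 1 (Klf2, log2 difference 1.17, adjusted p 0.0180). The block changed no other call of a factor against its parental line, in the mean effect or in the allelic ratio. With 129S1 counts alone, Klf5 was called once in each of 3 comparisons: against the parental line in d3 clone 21 (-6.11), in the mean effect (-0.58), both opposite in sign to the sum of alleles, and against d3 clone 12 (-6.70); its 129S1 counts in that clone are 13 and 19. Over the 10 pairs of parental lines, 12 calls were made without a filter and 0 from the parental libraries alone, and leaving out 1 library gave 1 to 10 in place of 7. The count fell to 1 without i7 parental replicate 1, to 2 without i7 parental replicate 2 and to 4 without d6 parental replicate 1, i12 parental replicate 2 or i10 parental replicate 1. The joint test called 3 factors without a filter, 0 from the parental libraries alone, 2 by DESeq2's likelihood ratio test on those libraries (Klf5 and Tbx3) and 1 to 3 with 1 library left out (3 without d3 parental replicate 1). The fits of the parental libraries alone used fewer samples, and the cause of the other shifts was not tested.

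With 1 library left out, the replicate comparison gave 8 to 12 calls in place of 11, the allelic ratio in parental lines 8 or 9, and the clone comparisons 0 throughout. A minimum of 50 counts per allele left out Pou5f1 and gave 7. Of 3867 alternative values of single factors, 3430 kept their direction and side of the threshold, 54 lost a call, 21 gained one, 2 were the Klf5 reversals, and 360 were uncalled values that changed sign. Most of the 3430 were uncalled before and after, so this count says little about how far the calls hold. Klf2 was the least covered factor, with a mean of 236.3 counts.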
